A study of Mus musculus with 17 samples.

Results

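Goblet cells line the small intestine among the absorptive enterocytes and secrete the mucus that covers the epithelium. The 10 genes described here were listed by name as goblet cell mucus genes, with earlier results of these data known, and all of them were found among the 33840 genes of the intestinal libraries and the 24594 identifiers of the libraries labelled liver. They were followed through 17 bulk RNA sequencing libraries of mice in 7 groups. In 8 libraries of wild-type small intestine, intestinal epithelial cells (IEC) or crypts, the epithelial pits that hold stem and Paneth cells, were taken after a sham operation or after hepatectomy (removal of liver tissue by surgery), with 2 libraries per group. A further 9 libraries from wild-type mice carry the label liver and the treatment DSS (dextran sulfate sodium, a chemical that injures the colon lining) and fall into day 0, day 10 and day 20 in sets of 3. The labels give no ages and no time after surgery. Whether each library is a different animal is not stated either, so the p-values rest on a spread between libraries that may be technical. Sham and hepatectomy libraries carry running numbers of separate series, so operation and series cannot be told apart.

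Mucus is built around the gel-forming mucin MUC2, a long glycoprotein that is folded and linked in the endoplasmic reticulum, stored in granules and unfolded on release. Other granule proteins bind, cut or stabilise this gel, and small trefoil and guanylin peptides are released with it. Goblet cells arise from secretory progenitors that switch on Atoh1 under low Notch signalling and then mature under the transcription factor Spdef.

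By role, Muc2 (chromosome 7, 141690340 to 141754693, plus strand, mm10) encodes the gel itself. Fcgbp (chromosome 7, 28071236 to 28120862, plus strand) encodes a large mucus protein bound to the gel, Zg16 (chromosome 7, 127050156 to 127087328, minus strand) a lectin that binds bacterial cell walls, and Clca1 (chromosome 3, 145003817 to 145032776, minus strand) a secreted metalloprotease that processes MUC2. Agr2 (chromosome 12, 35992907 to 36004087, plus strand) encodes a disulfide isomerase of the endoplasmic reticulum needed to make MUC2, Tff3 (chromosome 17, 31125306 to 31129646, minus strand) a trefoil peptide, and Spink4 (chromosome 4, 40920052 to 40931395, plus strand) a Kazal-type protein of goblet granules. Guca2a (chromosome 4, 119637704 to 119639471, plus strand) encodes guanylin, the peptide ligand of the receptor GUCY2C, which is also made by enterocytes. Klk1 (chromosome 7, 44225360 to 44229618, plus strand) encodes tissue kallikrein, a serine protease, and Spdef (chromosome 17, 27714352 to 27728955, minus strand) the ETS factor of goblet cell maturation. No source gives the strand setting of the counting. Zg16 and Klk1 overlap other annotated genes without sharing exons with them, and Klk1 has near-identical Klk1b copies, so these counts are uncertain.

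Promoter sequence was found for 6 of the 10 genes in the RefSeq GRCm38.p6 table. None was found for Clca1, Zg16, Tff3 and Spink4, so these were not searched. The 250 bases before the start are shown for 3 genes whose annotated starts were the same in RefSeq and GENCODE. Muc2 and Fcgbp differed between crypts and IEC in their response to hepatectomy and Klk1 was the member for which no such difference was called, which is why these 3 are set side by side. Each is written 5′ to 3′ on the plus strand, in lower case, with matches to the searched motifs in capitals.
Muc2, chr7:141690090-141690339: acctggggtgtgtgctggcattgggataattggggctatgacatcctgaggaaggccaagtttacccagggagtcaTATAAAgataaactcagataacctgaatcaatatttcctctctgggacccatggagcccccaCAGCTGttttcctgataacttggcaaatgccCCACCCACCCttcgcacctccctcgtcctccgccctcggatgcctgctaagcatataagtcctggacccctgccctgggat
Fcgbp, chr7:28070986-28071235: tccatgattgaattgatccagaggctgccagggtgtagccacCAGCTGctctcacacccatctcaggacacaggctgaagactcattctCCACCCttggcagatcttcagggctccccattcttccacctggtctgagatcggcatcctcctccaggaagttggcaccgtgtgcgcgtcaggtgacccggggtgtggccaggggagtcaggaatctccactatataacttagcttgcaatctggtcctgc
Klk1, chr7:44225110-44225359: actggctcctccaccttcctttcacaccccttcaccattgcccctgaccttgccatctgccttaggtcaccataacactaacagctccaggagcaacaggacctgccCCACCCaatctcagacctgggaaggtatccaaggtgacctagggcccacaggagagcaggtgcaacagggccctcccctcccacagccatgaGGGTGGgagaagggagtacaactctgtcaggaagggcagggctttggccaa
The motifs searched on both strands were CAGCTG (an E-box, the kind of site that ATOH1 and other basic helix-loop-helix factors bind), CCACCC (the core read by KLF factors), TATAAA (the TATA box), CCGGAT (an ETS-type site), TGTTTAC (the FOXA core) and TTTATGG (the CDX core). CAGCTG stood in the Muc2 and Fcgbp windows and in that of Guca2a, against 13% of 32851 promoters of the same length. CCACCC was present in the windows of Muc2, Fcgbp, Klk1 and Agr2, against 28.1% of all promoters, and in Muc2 it occurs as an overlapping pair. TATAAA was found in Muc2 alone of the 6, against 12.4% of all, and lay 174 bases before the start. TGTTTAC was found in Guca2a (3.17% of all) and TTTATGG in Agr2 (2.43% of all), and CCGGAT (4.94% of all) was in none of the 6 windows. Agr2 and Spdef, whose responses to hepatectomy also differed between crypts and IEC, had no E-box match of this form. These matches describe letters in a window and are not binding data. A link between a motif and the response to hepatectomy was not tested.

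Total counts per intestinal library ran from 26609786 to 43580050. Those of the libraries labelled liver ran from 12742629 to 42669857. Levels are given as TMM-normalised CPM, that is counts set to a common library size by the trimmed mean of M values, unless stated otherwise. Changes are log2 fold changes ± SE from edgeR's quasi-likelihood test, with adjusted p-values over all genes tested and calls at an adjusted p under 0.05. Scaling matters here: without TMM, all log2 changes shift by -0.32 for hepatectomy against sham in crypts and by -0.22 in IEC, and by 0.36 and 0.25 for crypts against IEC in sham and after hepatectomy. Lgr5, a crypt stem cell marker, was not higher in sham crypts than in sham IEC, at 15.8 and 16.1 CPM of all counts, whereas the stem cell marker Olfm4 was at 2080 and 1359 CPM.

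Every goblet cell gene was lower in hepatectomy crypts than in sham crypts. Of the 10 members 10 fell and none rose. By comparison 18.3% of the 18207 genes tested fell and 19.2% rose, 37.5% in all. The libraries of the groups did not overlap for any member, but with 2 libraries per group this adds little. Muc2 in IEC did not overlap either and was not called in the edgeR test (adjusted p = 0.17). The share of all genes without overlap was not counted. The members' median log2 change was -1.21, against 0.01 over all genes. With library totals in place of TMM the 10 members also fell, but over all genes 1564 rose and 8245 fell in place of 3493 and 3329.

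The gel proteins fell by unequal amounts. Muc2 stood at 601 and 595 CPM in the sham crypts and at 263 and 250.1 CPM in the hepatectomy crypts. Its level was thus 2.33-fold lower (log2 fold change -1.22 ± 0.044, adjusted p = 1.5e-09). Clca1, the metalloprotease, stood at 506 and 492 CPM in sham and at 99.8 and 106 CPM after hepatectomy. This was the largest fall of the 10, 4.84-fold (-2.28 ± 0.046, adjusted p = 4.1e-11). Zg16, the lectin, was at 893 and 924 CPM in sham crypts and at 385 and 365 CPM after hepatectomy (-1.28 ± 0.048). Fcgbp, the abundant gel-bound protein, was at 1674 and 1589 against 852 and 845 CPM (-0.94 ± 0.041). For each of these genes the lower sham library was well above the higher hepatectomy library.

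Among the folding factor and the small secreted proteins, Agr2 had the second largest fall. It stood at 544 and 563 CPM in sham crypts and at 186 and 189 CPM in hepatectomy crypts (-1.56 ± 0.044, adjusted p = 2.7e-10). Tff3, the trefoil peptide, went from 1417 and 1435 CPM to 688 and 659 CPM (-1.08 ± 0.042). Spink4 stood at 619 and 629.6 CPM in sham and at 294 and 276 CPM after hepatectomy (-1.13 ± 0.046). The guanylin gene Guca2a had the smallest fall, with 296 and 286 CPM in sham and 177 and 174 CPM after hepatectomy (-0.73 ± 0.04, adjusted p = 6.3e-08).

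Klk1 and the transcription factor gene Spdef were expressed at lower levels and fell as well. Klk1 stood at 68.5 and 66.6 CPM in sham crypts and at 26.4 and 27.4 CPM after hepatectomy (-1.33 ± 0.058). Spdef was at 24 and 24.4 CPM in sham and at 10.9 and 10.4 CPM after hepatectomy (-1.19 ± 0.09, adjusted p = 1e-06). In bulk libraries a smaller number of goblet cells and less RNA per goblet cell cannot be told apart.

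**Figure D1:**
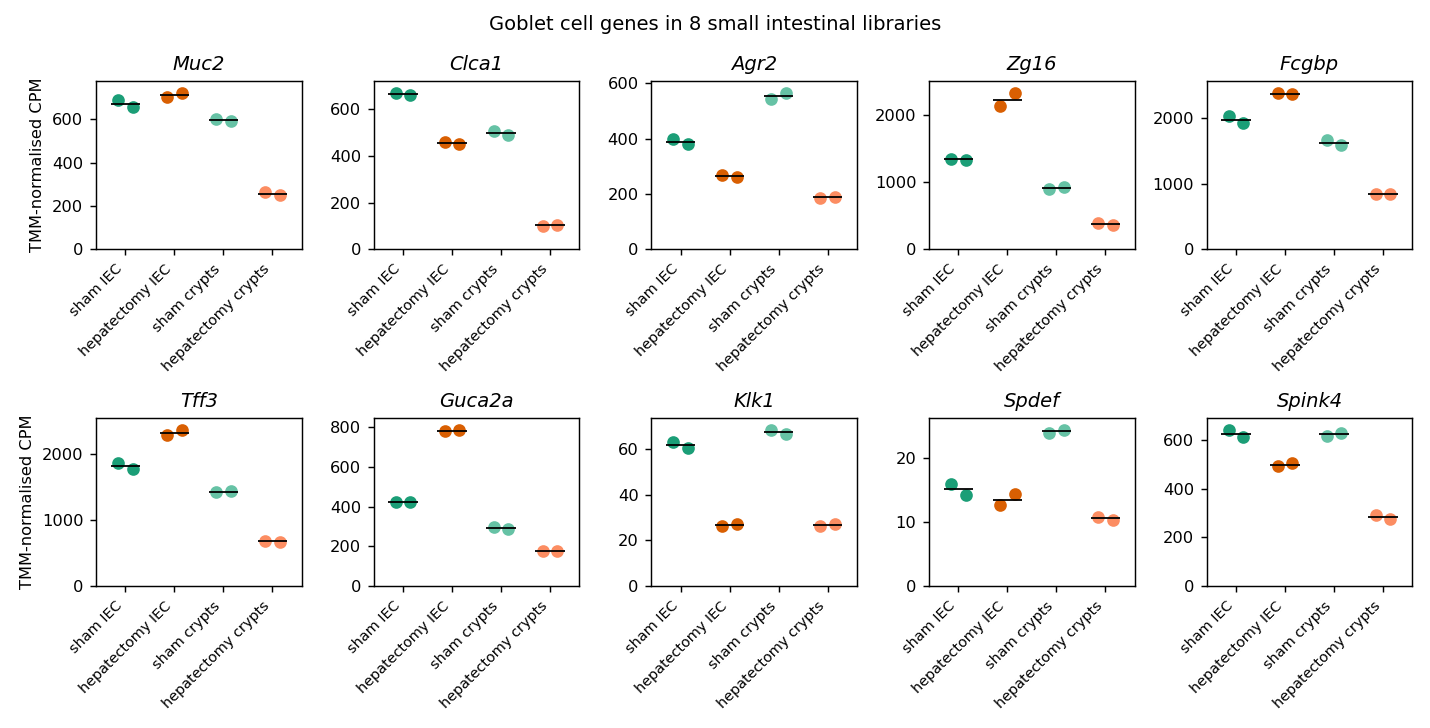
TMM-normalised CPM (vertical axes, from 0) of the 10 goblet cell genes in the 8 small intestinal libraries; each point is a library and each line the mean of 2. For every gene the 2 hepatectomy crypt libraries lie below both sham crypt libraries, whereas in IEC Guca2a, Zg16, Tff3 and Fcgbp lie above sham (Fcgbp and Tff3 are no longer called with library totals) and Klk1, Agr2, Clca1 and Spink4 below.

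In IEC the same operation left a mixed picture. With TMM scaling 4 members rose, 4 fell and 2 did not pass the test, where 19.5% of all genes rose and 18.3% fell, 37.8% in all. With library totals, which give 2083 rises and 6027 falls over all genes in place of 3543 and 3334, the members counted 2 rises and 5 falls. The members' median change was -0.04, against 0.02 over all genes, and they ranged from -1.20 to 0.89.

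Guca2a and Zg16 were higher after hepatectomy under every scaling tried. Guca2a stood at 422 CPM in both sham IEC libraries and at 781 and 786 CPM after hepatectomy, 1.86-fold higher (0.89 ± 0.04, adjusted p = 6.3e-09). Zg16 was at 1350.2 and 1333 CPM in sham and at 2138 and 2322 CPM after hepatectomy (0.73 ± 0.047, adjusted p = 1.4e-07). The rises of the gel-bound protein and the trefoil peptide were smaller. Tff3 was at 1859.8 and 1763 CPM in sham and 2283 and 2356 CPM after hepatectomy (0.36 ± 0.041), and with library totals its change was 0.14 and not called. Fcgbp was at 2031 and 1929 CPM against 2381 and 2372 CPM (0.26 ± 0.041), and with library totals its change was 0.05 and not called.

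The protease and the folding factor went the other way. Klk1 fell in IEC as it had in crypts, from 63.4 and 60.5 CPM to 26.4 and 27.4 CPM (-1.20 ± 0.06, adjusted p = 1.6e-08). Agr2 fell from 397 and 382 CPM to 270.2 and 262 CPM (-0.55 ± 0.044), and Clca1 from 668 and 664 CPM to 462 and 452 CPM (-0.54 ± 0.044). Spink4 was at 641 and 611 CPM in sham and at 492 and 505 CPM after hepatectomy (-0.33 ± 0.045). None of these 4 falls depended on the scaling.

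Muc2 and Spdef did not pass the test in IEC. Muc2 was at 689 and 658 CPM in sham IEC and at 705 and 719.9 CPM after hepatectomy (0.08 ± 0.043, adjusted p = 0.17), a value that became -0.13 with library totals. Spdef was at 15.9 and 14.3 CPM in sham and at 12.6 and 14.4 CPM after hepatectomy (-0.16 ± 0.096, adjusted p = 0.21), with overlapping libraries, and with library totals it was called at -0.38.

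The contrast between the fractions was tested directly as the difference of the hepatectomy effects, crypts minus IEC. Of the 10 members 9 had a lower effect in crypts, where 10.1% of all genes did and 9.15% had a higher one, 19.2% in all. With library totals the members' count was also 9, and over all genes 1019 effects were higher and 2436 lower in crypts in place of 1666 and 1833. Zg16 differed most (-2.01 ± 0.067, adjusted p = 1.4e-08), followed by Clca1 (-1.73 ± 0.062), Guca2a (-1.62 ± 0.057) and Tff3 (-1.44 ± 0.059). Muc2 differed by -1.30 ± 0.061, Fcgbp by -1.21 ± 0.058, Spdef by -1.03 ± 0.13, Agr2 by -1.01 ± 0.062 and Spink4 by -0.80 ± 0.064. Klk1 was the exception, with a difference of -0.12 ± 0.083 (adjusted p = 0.34) between effects of -1.33 and -1.20. None of these 10 calls changed with DESeq2, with library totals or with any library left out.

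**Figure D2:**
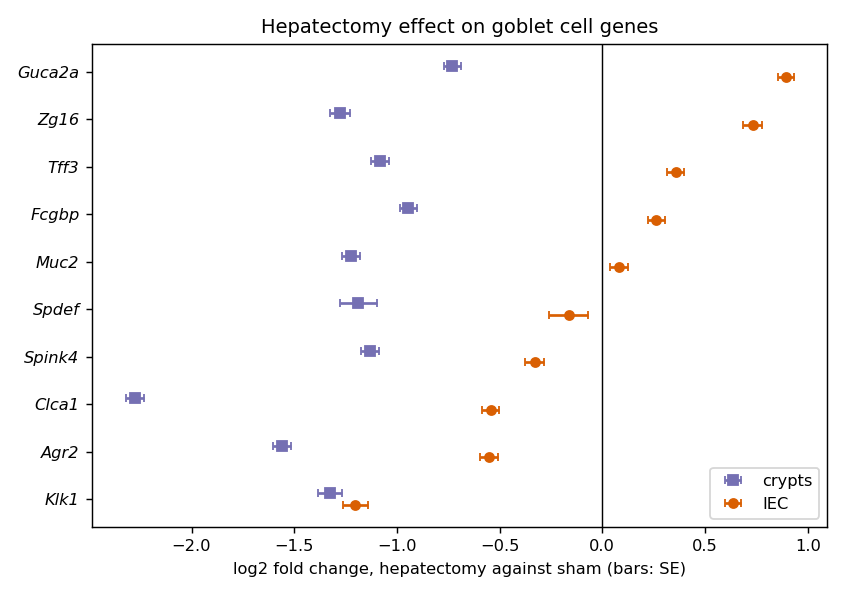
Log2 fold change of hepatectomy against sham (horizontal axis, bars SE) for the 10 goblet cell genes in crypts (squares) and IEC (circles), ordered by the IEC value, from the fit of 8 libraries with TMM scaling. All squares lie between -2.28 and -0.73, the circles run from -1.20 to 0.89 (Muc2 is negative and Tff3 and Fcgbp are uncalled in IEC with library totals), and the 2 values are closest for Klk1, with a difference of -0.12.

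Crypts were also set against IEC within each operation. With library totals, 9 of 15 Paneth cell genes were lower and 3 higher in sham crypts than in sham IEC. The Paneth marker Lyz1 averaged 424 and 691 CPM of all counts in these 2 groups. Another Paneth marker, Mmp7, averaged 72.2 CPM in sham crypts and 60.6 CPM in sham IEC. Other lists did separate the fractions with library totals. All 16 enterocyte genes were lower in sham crypts than in sham IEC, and all 12 mitosis genes were higher. As the Paneth genes did not follow this split, the contrast of the fractions is not read as a position along the epithelium. In sham, Agr2 and Spdef were higher in crypts, by 0.51 ± 0.043 and 0.68 ± 0.09, and 6 members were lower, where 19.3% of genes were higher and 19.3% lower, 38.6% in all. Zg16 (-0.56 ± 0.047) and Guca2a (-0.54 ± 0.04) were the lowest in crypts relative to IEC. Clca1 was at -0.42 ± 0.043, and at -0.06 and not called with library totals. The values of Tff3 (-0.35), Fcgbp (-0.28) and Muc2 (-0.17) were called lower with TMM but turned to 0.011, 0.079 and 0.19 with library totals, and the call of Muc2 was also lost without library 1 of sham IEC (-0.14, adjusted p = 0.096). Klk1 (0.12, adjusted p = 0.1) and Spink4 (-0.00, adjusted p = 0.95) did not pass, and the sign of Spink4 changed between settings. With library totals 5 members were called higher and 2 lower, and over all genes 8597 were higher and 1742 lower in place of 3523 and 3512.

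After hepatectomy 9 members were lower in crypts than in IEC, where 25.6% of all genes were, 26.3% being higher and 51.9% called in all. With library totals 8 were lower and Klk1 was called higher, with all genes at 7270 higher and 3073 lower in place of 4780 and 4665. Zg16 was 5.95-fold lower (-2.57 ± 0.05), Guca2a 4.47-fold (-2.16 ± 0.042) and Clca1 4.44-fold (-2.15 ± 0.046). Tff3 (-1.78), Fcgbp (-1.49) and Muc2 (-1.47) came next. Spink4 (-0.81), Agr2 (-0.50) and Spdef (-0.35 ± 0.096, adjusted p = 0.0088) had the smallest falls. The call of Spdef was lost with library totals and without library 2 of hepatectomy IEC (-0.25, adjusted p = 0.0996) or of hepatectomy crypts (-0.30, adjusted p = 0.0576). Klk1 stood at 26.4 and 27.4 CPM in both fractions.

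Ordered by mean level, Muc2 was highest in hepatectomy IEC (712 ± 11 CPM, SD, n = 2), then in sham IEC (674 ± 22), sham crypts (598 ± 4.2) and hepatectomy crypts (256 ± 9), and the first 2 did not differ in the test. Fcgbp, Tff3, Zg16 and Guca2a had the same order with TMM scaling. As CPM of all counts only Zg16 and Guca2a kept it: Muc2 was then at 743 in sham crypts, 653 in sham IEC and 595 in hepatectomy IEC, Fcgbp was highest in sham crypts (2028), and Tff3 was at 1769.9 in sham crypts and 1756 in sham IEC. Clca1 had its highest mean in sham IEC (666 ± 3.3 CPM) and its lowest in hepatectomy crypts (103 ± 4.5). Agr2 and Spdef were highest in sham crypts, at 553 ± 14 and 24.2 ± 0.27 CPM, and lowest in hepatectomy crypts, at 188 ± 2.5 and 10.6 ± 0.34 CPM. Klk1 grouped by operation, with 61.9 ± 2 and 67.5 ± 1.3 CPM in sham IEC and sham crypts and 26.9 CPM in both hepatectomy groups. Spink4 was at 626 ± 21 and 624 ± 7.7 CPM in the sham fractions, which did not differ in the test (607 and 775 as CPM of all counts), then at 498 ± 9.2 CPM in hepatectomy IEC and 285 ± 13 CPM in hepatectomy crypts.

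Levels can be set between genes only per length, as TMM-normalised CPM per kb of exon. In sham crypts Tff3, whose transcript is short, was highest at 2892 ± 26 CPM per kb, followed by Spink4 (1309 ± 16), Zg16 (723 ± 17), Guca2a (490.1 ± 11) and Agr2 (429 ± 11). Muc2, with the second longest exon length of the set, stood at 83.9 ± 0.59 CPM per kb and Spdef at 10.5 ± 0.12. Of the summed CPM per kb of the 10 genes, Tff3 made up 46 to 49.4% in every intestinal library. The share of Zg16 was 11.4 to 11.6% in sham crypts, 13.9 to 14.3% in sham IEC, 18.2 to 19.1% in hepatectomy IEC and 10.3 to 10.4% in hepatectomy crypts. Spink4 moved the other way, with 20.7 to 20.9%, 17.2 to 17.4%, 10.9 to 11% and 20.5 to 21% in the same order. Clca1 made up 2.06 to 2.14% in sham crypts and 0.901 to 0.996% in hepatectomy crypts. As a share of all counts of a library, the 10 genes held 0.758 to 0.791% in sham IEC, 0.796 to 0.849% in sham crypts, 0.805 to 0.812% in hepatectomy IEC and 0.286 to 0.298% in hepatectomy crypts.

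**Figure D3:**
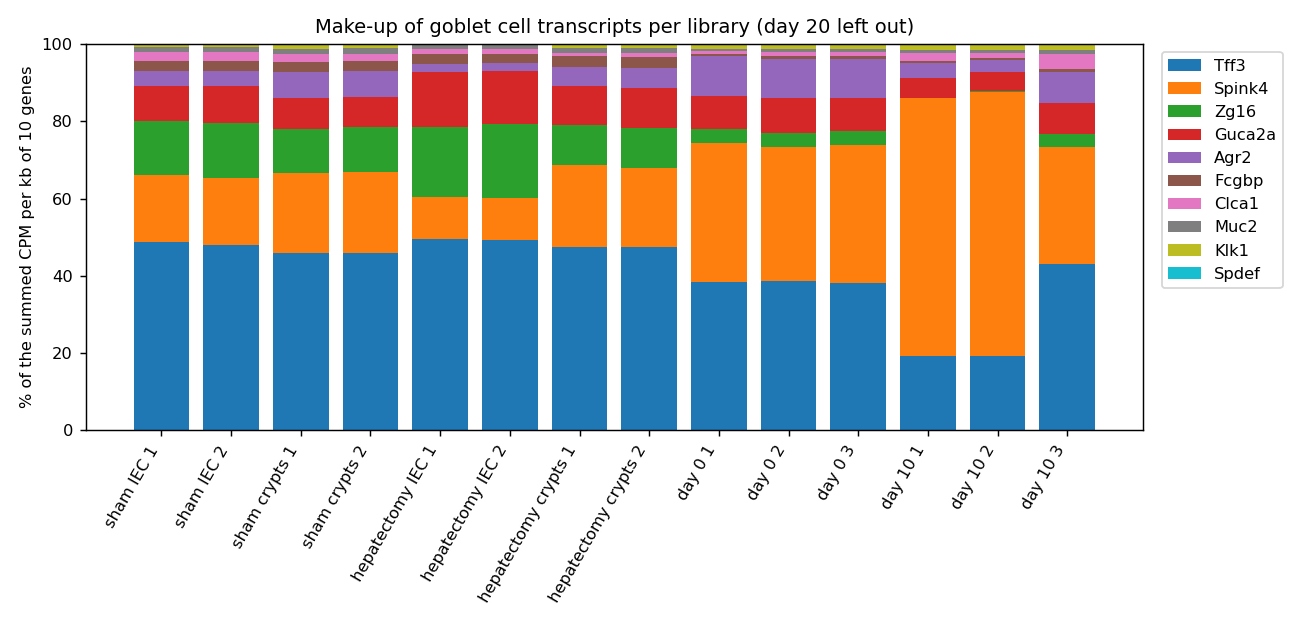
Make-up of the summed CPM per kb of the 10 goblet cell genes (vertical axis, %) in 8 intestinal libraries and in 6 libraries labelled liver day 0 or day 10, which were counted separately. Tff3 is the largest part of each intestinal library at 46 to 49.4%, Zg16 is widest in hepatectomy IEC at 18.2 to 19.1%, and Spink4 ranges from 30.3 to 68.5% in the day 10 libraries.

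Genes outside the set with the most similar profile over the 8 intestinal libraries were looked up by Pearson correlation of log2 CPM. These values describe 8 libraries of 4 groups and carry no test. Closest to Muc2 were Rgs2 (r = 0.9925), Hepacam2 (r = 0.9907), Slc10a2 (r = 0.9869), Fer1l6 (r = 0.985), Pknox1, Ccl6, Acss1 and Laptm4b. Ccl6, a chemokine, was also on the list of other goblet cell genes. Closest to Clca1 were Selenom (r = 0.9942), Atp2a3, Lck (r = 0.9887), Kdelr3, Il1rap, Cd7, Krt18 and Itgae, of which Lck, Cd7 and Itgae are known from T cells. Closest to Guca2a were Tmem42 (r = 0.9953), Gatd1, Naip5, Pm20d1, Hsbp1, Liph, Icmt and Sc5d. Within the set, Fcgbp (r = 0.9792), Tff3 (r = 0.9728) and Clca1 (r = 0.9674) were most like Muc2, while Klk1 (r = 0.4697) and Spdef (r = 0.5577) were least like it.

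Other goblet cell genes, a list of 22, moved in the same direction in crypts. Of these 20 fell and 1 rose, with a median of -0.78, where 18.3% of all genes fell and 19.2% rose. Tpsg1, a serine protease, was at 6.81 ± 0.95 against 20.9 ± 1.4 CPM (SD, n = 2; -1.61 ± 0.1), Bcas1 at 6.48 against 15.3 CPM (-1.24 ± 0.098), the transporter gene Slc12a8 at 35 against 58.7 CPM (-0.74 ± 0.059) and the transcription factor gene Creb3l4 at 4.09 against 10.7 CPM (-1.39 ± 0.11). The gene that rose was Nlrp6, an inflammasome sensor, at 0.21, and with library totals it was not called and stood at -0.11. In IEC 1 of the 22 rose and 8 fell (1 and 13 with library totals), where 19.5% of all genes rose and 18.3% fell. The median of the list there was -0.11. Tspan13, a membrane tetraspanin, rose there (0.78 ± 0.048), and Pdia5, a disulfide isomerase, fell (-0.92 ± 0.08). The effect was lower in crypts than in IEC for 16 of the 22 and higher for 1, against 10.1% and 9.15% of all genes.

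Of 14 regulators of the secretory lineage, 6 fell in crypts, 2 rose and 6 did not pass (11 fell and none rose with library totals), with a median of -0.25. Over all genes 18.3% fell and 19.2% rose in crypts. Atoh1, the switch into the secretory lineage, stood at 10.5 ± 1.4 against 25.2 ± 0.77 CPM (-1.26 ± 0.095, adjusted p = 9.7e-07) in crypts and fell by 0.38 in IEC, with a difference of -0.88 ± 0.14. Foxa3, a forkhead factor of goblet cells, was at 15.3 against 24 CPM in crypts (-0.65 ± 0.074). The Notch ligand genes Dll4 and Dll1 fell in crypts, by 0.81 and 0.53 on the log2 scale. In IEC 2 regulators rose and 2 fell (1 and 4 with library totals), among them Klf4, a factor of goblet cell differentiation, which rose by 0.56 ± 0.07. The share of regulators called in IEC was below the 37.8% called over all genes. The difference between fractions was called lower in crypts for 5 of the 14 and higher for 2, against 10.1% and 9.15% of all genes. Dll1 was at -0.91 ± 0.12, Foxa3 at -0.74 ± 0.11 and Dll4 at -1.06 ± 0.15.

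The counts of the lists that follow stand beside 18.3% of all genes fallen and 19.2% risen in crypts, and 18.3% and 19.5% in IEC. Enzymes and carriers that build mucin sugars did not move as a block. Of 23 tested, 6 rose and 8 fell in crypts and 7 rose and 5 fell in IEC, counts that became 1 and 14, and 4 and 10, with library totals. Galnt4 and Galnt7, which start O-glycans, fell in crypts (-0.58 ± 0.061 and -0.60 ± 0.07). The sialyltransferase St3gal4 rose in crypts (0.65 ± 0.044) and in IEC (0.71 ± 0.044). Chst4, a sulfotransferase, rose in IEC from 16.2 ± 1.3 to 50.3 ± 4.7 CPM (1.63 ± 0.095), and its effect in crypts was lower by 1.18 ± 0.13.

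Other mucins and trefoil peptides stood apart from the goblet set. Of 11, 5 rose and none fell in crypts (3 and 1 with library totals), and 2 rose and 4 fell in IEC (1 and 6). Muc3, a membrane mucin of enterocytes, rose by 0.70 ± 0.047 in IEC. Tff1, a trefoil peptide of the stomach, was at 1.46 ± 0.062 against 13.8 ± 1.1 CPM in IEC (-3.24 ± 0.16), and its effect was higher in crypts by 3.67 ± 0.21. Muc4 fell in IEC from 104 ± 0.87 to 51.1 ± 4.2 CPM (-1.02 ± 0.067). Tff2, Muc6 and Muc5ac, which belong to stomach and Brunner's glands, rose in crypts from low levels, with Tff2 at 2.26 against 1 CPM.

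Guanylin has a partner, uroguanylin, encoded by Guca2b, which did not follow it in crypts. Guca2b stood at 321 ± 5.3 against 99.4 ± 0.45 CPM in crypts (1.69 ± 0.041, adjusted p = 1.4e-10), where Guca2a fell, and at 2615 ± 69 against 882 ± 19 CPM in IEC (1.57 ± 0.04). Of the 8 genes of the guanylin pathway list, which holds Guca2a, 6 rose and 1 fell in crypts (4 and 2 with library totals), and 6 rose and 2 fell in IEC. The anion exchanger genes Slc26a6 and Slc26a3 rose in both fractions, by 0.78 and 0.61 in crypts and by 0.73 and 0.76 in IEC. The receptor gene Gucy2c had an effect lower in crypts than in IEC by 0.57 ± 0.071.

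Genes of endoplasmic reticulum stress and protein folding, a list of 12, counted 2 rises and 5 falls in crypts (1 and 10 with library totals) and 4 rises and 6 falls in IEC (3 and 7). Ern2, the stress sensor of mucus-secreting cells, was at 12.5 against 23.8 CPM in crypts (-0.93 ± 0.09), and the folding factors Sdf2l1 (-0.79 ± 0.051) and Pdia4 (-0.62 ± 0.052) fell there too. Herpud1, a stress-induced degradation factor, rose in IEC (1.16 ± 0.058). Of 9 genes known as targets of interleukins 4 and 13, a list that holds Clca1, 1 rose and 2 fell in crypts (1 and 5 with library totals), a share no higher than the 37.5% called over all genes. Those that fell included Retnlb, a goblet cell antibacterial protein (-1.39 ± 0.28, at 0.687 against 1.83 CPM).

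**Figure D4:**
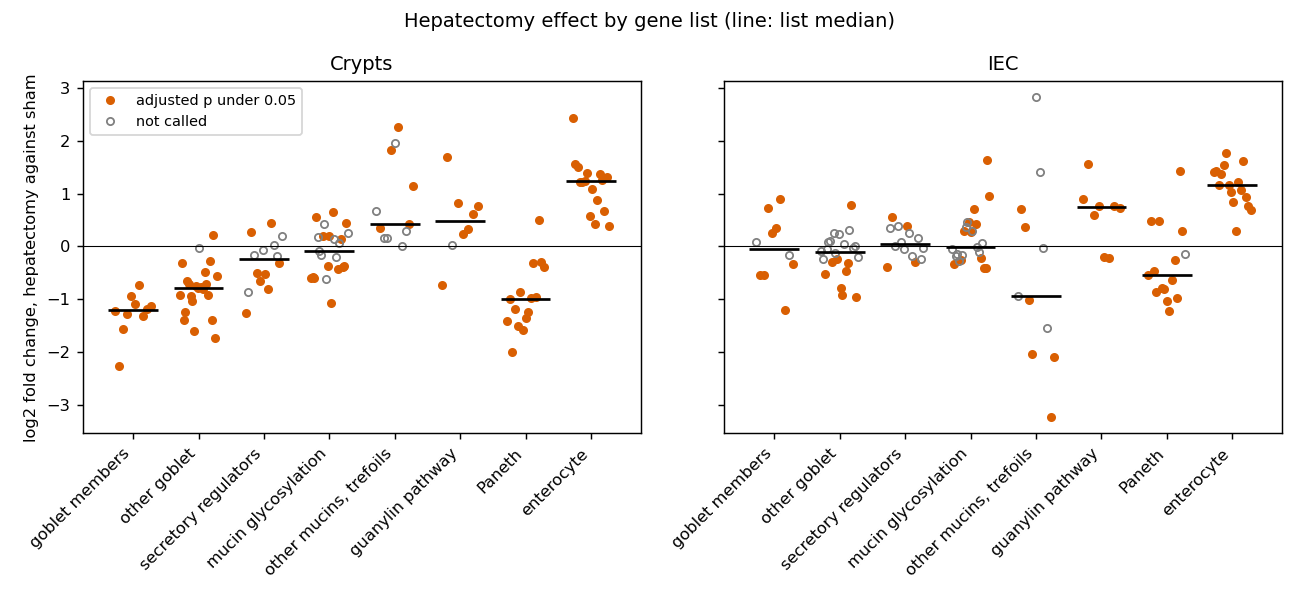
Log2 fold change of hepatectomy against sham (vertical axis) for each tested gene of 8 lists in crypts (left) and IEC (right), with TMM scaling; filled points passed an adjusted p of 0.05 and lines are list medians. The goblet members have a median of -1.21 in crypts and -0.04 in IEC, other goblet genes -0.78 and -0.11, and enterocyte genes 1.24 and 1.17; library totals shift every point down by 0.32 in crypts and 0.22 in IEC, which turns several values near 0 negative.

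Markers of other cell types changed too, and not all in the direction of the goblet genes. All 16 enterocyte genes rose in crypts and all 16 in IEC (14 and 15 with library totals). Their summed level was 7596 to 8171 CPM of all counts in sham crypts and 14378 to 14506 in hepatectomy crypts, and 31647 to 32260 against 66731 to 71034 in IEC. Of 15 Paneth cell genes 14 fell and 1 rose in crypts, and 10 fell and 4 rose in IEC. Their sums were 6361 to 6497 CPM of all counts in sham crypts and 5352 to 5471 in hepatectomy crypts, but 5081 to 5280 and 5433 to 5479 as TMM-normalised CPM. In IEC they were 8482 to 8954 and 10406 to 10586 CPM of all counts. A sum is weighted to the most abundant genes, so the Paneth sums need not follow the number of genes that fell. These sums and counts therefore do not settle whether the Paneth cell content changed. Of 12 immune genes 11 fell in crypts and 8 in IEC, with sums of 171 to 181 against 41.7 to 45.2 CPM in crypts and 413 to 424 against 142 to 145 CPM in IEC. Mitosis genes fell, 11 of 12 in crypts and 12 of 12 in IEC. A lower effect in crypts than in IEC was not limited to goblet genes. With library totals it was called for 11 of 15 Paneth, 9 of 12 immune and 4 of 10 tuft cell genes, and a higher one for none. Of 16 enterocyte genes 7 had a lower and 2 a higher effect in crypts, and of 12 mitosis genes none and 4. Over all 18207 genes 2436 were lower and 1019 higher. The hepatectomy libraries of both fractions had counts over more genes, 30345 to 30520 against 25010 to 25762 in crypts and 31030 to 31065 against 26731 to 26915 in IEC. The part of these shifts in the goblet cell result was not tested.

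In the libraries labelled liver, tissue markers were read first. Alb, the main plasma protein of hepatocytes, averaged 36629 CPM of all counts in the day 20 libraries, 422 at day 0 and 966 at day 10, while Olfm4 averaged 31.8, 8273 and 5177 CPM, so the libraries labelled day 0 and day 10 go against their tissue label. The 10 goblet genes held 0.499 to 0.526% of all counts at day 0, 0.381 to 0.670% at day 10 and 0.00271 to 0.00361% at day 20. Library 3 of day 10 stood apart, with 12742629 counts and a Paneth marker sum of 15300 CPM, which was the lowest of the 6 libraries. Called values and counts at day 10 are therefore given with and without it. The fit without it uses only day 0 and day 10 and was chosen after seeing the data.

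Against day 0, 2 of the 10 members rose at day 10 and 2 fell, where 24.7% of 16694 genes rose and 18.8% fell, 43.6% in all (2542 and 1343 genes with library totals, in place of 4129 and 3146). Without library 3 of day 10, 6 were called, 4 higher and 2 lower, where 2253 of 15455 genes were higher and 3229 lower. Clca1, the metalloprotease, was at 218, 186 and 178 CPM at day 0 and at 587, 447 and 378 CPM at day 10 (1.28 ± 0.18, adjusted p = 0.00087), with no overlap between days, and its change was 1.33 without library 3. Agr2 was at 882, 657 and 633 CPM at day 0 and at 419.8, 389 and 269 CPM at day 10 (-1.01 ± 0.25, adjusted p = 0.0094), again without overlap, and its change was -0.92 without library 3.

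Muc2 was at 176, 245 and 238 CPM at day 0 and at 462, 562 and 203 CPM at day 10 (0.90 ± 0.3, adjusted p = 0.032). Library 3 of day 10 lay within the day 0 range, and the call was lost without any of the 3 day 0 libraries or without library 1 or 2 of day 10, with values of 0.58 to 0.88 and adjusted p from 0.0734 to 0.17. In the fit of only day 0 and day 10 it was 0.79 and not called with all 6 libraries (adjusted p = 0.0998), and 1.12 without library 3 (adjusted p = 0.006). Zg16, the lectin, was at 307, 230.5 and 227 CPM at day 0 and at 16.1, 14.6 and 111 CPM at day 10 (-2.44 ± 0.6, adjusted p = 0.0093). Its fall was -4.13 without library 3, was not called with library totals (-2.12, adjusted p = 0.0608), and DESeq2 gave no adjusted p for it.

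Spink4 and Klk1 were called only without library 3 of day 10 or, for Spink4, also without the expression filter. Spink4 was at 1140.0, 832 and 834 CPM at day 0 and at 2619.9, 3142 and 382 CPM at day 10 (1.13 ± 0.52, adjusted p = 0.092), and at 1.54 without library 3. Klk1 was at 78.6, 56.9 and 56.8 CPM and at 125, 138 and 34.7 CPM (0.63 ± 0.39, adjusted p = 0.2), and at 0.96 without library 3. In each case libraries 1 and 2 of day 10 lay above all day 0 libraries and library 3 below them. Tff3 (-0.48, adjusted p = 0.096), Guca2a (-0.37, adjusted p = 0.23), Fcgbp (-0.06, adjusted p = 0.86) and Spdef (0.06, adjusted p = 0.88) did not pass. The sign of Fcgbp and Spdef changed between settings, and Tff3 was called without the expression filter (-0.67, adjusted p = 0.0313). Without library 3 none of these 4 was called, with Tff3 at -0.38 and Guca2a at -0.18.

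The day 10 counts of the lists that follow stand beside 24.7% of all genes risen and 18.8% fallen. Without library 3, 2253 of 15455 genes rose and 3229 fell. Of the other goblet cell genes 7 of 22 fell and 1 rose at day 10 (7 and 2 without library 3). The falls were led by Pdia5 (-1.03 ± 0.15, and -1.06 without library 3) and Atp2c2 (-1.00 ± 0.2, and -1.19 without it), a calcium pump of the secretory pathway. Among 14 secretory regulators 4 rose and 5 fell (4 and 4 without library 3), including Dll1 (-1.15 ± 0.17) and Klf4 (1.23 ± 0.29). Without library 3 Dll1 was at -1.35 and Klf4 at 1.37. Markers of other cells moved as well. All 9 tuft cell genes tested rose (8 without library 3), and 11 of 16 enterocyte genes rose and none fell (7 and 2 without it). Of 10 enteroendocrine genes 9 fell (10 without it), and 10 of 12 hepatocyte genes rose, of which none was called without library 3. With library totals and all libraries, 6 other goblet genes fell and 1 rose, and 3 regulators fell and 4 rose. On that scale 8 tuft and 9 enterocyte genes rose, 5 enteroendocrine genes fell and no hepatocyte gene was called, where 2542 of 16694 genes rose and 1343 fell. The part of these shifts in the day 10 values of the goblet genes was not tested.

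At day 20, in the libraries with hepatocyte markers, all 10 members were lower than at day 0, where 38.1% of genes were lower and 33.3% higher, 71.4% in all (9299 and 3198 genes with library totals, in place of 6356 and 5558). The log2 changes ran from -6.03 for Spink4 to -7.61 for Zg16, with a median of -6.30 against -0.16 over all genes. Muc2 was at 3.42, 2.78 and 2.05 CPM and Tff3 at 17, 13.4 and 12.8 CPM. This comparison sets libraries of different tissue content side by side.

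**Figure D5:**
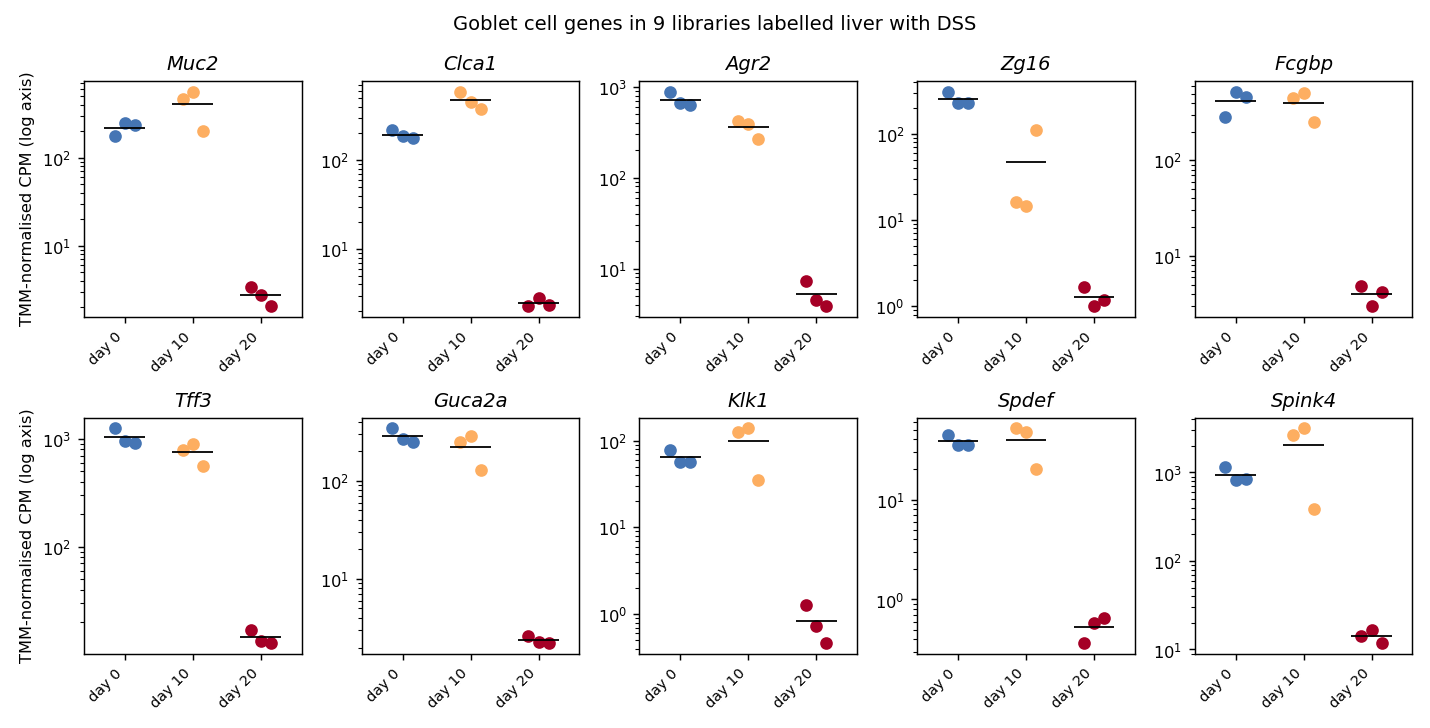
TMM-normalised CPM (logarithmic vertical axes) of the 10 goblet cell genes in the 9 libraries labelled liver with DSS at day 0, 10 and 20; points are libraries and lines the mean of 3. Day 20 lies far below for every gene (Muc2 at 2.05 to 3.42 CPM), and library 3 of day 10 departs from libraries 1 and 2 for Zg16, at 111 against 16.1 and 14.6 CPM, and for Spink4, at 382 against 2619.9 and 3142 CPM.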

How the data were processed

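Bulk RNA was sequenced from 17 mouse libraries. Per the submitters' processing notes, STAR and Partek were used with mm10. Versions were not given. The intestinal files deposited by the authors hold expected counts (estimated counts per gene symbol), which were rounded, and the files labelled liver hold whole counts per gene identifier, deposited by the authors without a stated counting program. Of 24594 identifiers 24570 were matched to symbols, and the rest carried between 3.93 and 22.1% of a library's counts, which stay in the totals.

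The 8 intestinal and 9 liver-labelled libraries were fitted separately in R 4.3.3 with edgeR 4.0.16 (TMM, filterByExpr at minima of 10 counts and 15 in total, quasi-likelihood F test, Benjamini-Hochberg over all genes tested, calls at 0.05), one shared spread per table, no covariates, and 7 comparisons. The SE was derived from the F statistic. The procedure was tested on simulated data. Library totals and replicate spread set the precision. The members and the gene lists were chosen with earlier results of these data known, so patterns over them are descriptions. Named were all 10 members, up to 4 genes per other list with the smallest p and the 8 genes most correlated with Muc2, Clca1 and Guca2a (mean of at least 5 CPM, offset 0.5). Not every gene this selects is printed. Nlrp6, the Muc2 correlations within the set, and Lgr5, Olfm4 and Alb were named after their values were seen.

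Alternatives were DESeq2 1.42.0, RLE size factors, library totals, no filter, a stricter filter, a replicate block, leaving out each library, a fit restricted to the compared groups, and calls limited to log2 changes of 1 or more. Coordinates and exon lengths are from GENCODE vM21 and promoters from RefSeq GRCm38.p6. Figures were drawn with matplotlib 3.10.9 in Python 3.11.15. No set tests were run.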

Additional observations from a re-analysis of the deposited data

Results flagged for a closer look

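The hepatectomy effect differed between crypts and IEC for 9 of the 10 goblet cell genes, by the test of the difference itself (crypts minus IEC, log2, edgeR). The values were -1.3 for Muc2, -1.73 for Clca1, -1.01 for Agr2, -2.01 for Zg16, -1.21 for Fcgbp, -1.44 for Tff3, -1.62 for Guca2a, -1.03 for Spdef and -0.8 for Spink4. Over all genes 19.2% had a difference in either direction. The members were chosen with earlier results of these data known, so the count of 9 is a description.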

How the results depend on the processing

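The fall of all 10 members in crypts and the 9 differences between fractions kept direction and call under DESeq2, RLE, library totals, both filters, the block and every library left out, and the fall in crypts also in the restricted fit, which was not run for the difference. Calls limited to a log2 change of 1 or more left 1596 of 6822 genes in crypts, 1431 of 6877 in IEC, 711 of 3499 for the difference, 1646 of 7035 and 2762 of 9445 for crypts against IEC in sham and after hepatectomy, and 3479 of 7275 at day 10, with 1 member in IEC and 0 in sham crypts against IEC, where edgeR without that limit called 8 in each. The limit also ended the calls of Fcgbp and Guca2a in crypts, Spink4 for the difference, 3 members after hepatectomy and Muc2 at day 10. At day 10 the gene count was 3885 with library totals and 3950 with the stricter filter, and the causes were not tested. Library totals turned Muc2 in IEC to -0.13. In sham crypts against IEC they turned Muc2 to 0.19, Fcgbp to 0.079, Tff3 to 0.011 and Spink4 to 0.35, and after hepatectomy Klk1 to 0.25, as the scaling shift implies. Values near 0 also changed sign: without the filter Spink4 (0.038, sham), Klk1 (0.058, after hepatectomy) and Spdef (-0.12, day 10); with the stricter filter Fcgbp at day 10 (0.12); with only day 0 and day 10 fitted Spdef (-0.026), and with library 3 of day 10 also left out Fcgbp (0.070). Leaving out 1 library at a time gave -0.038 to 0.032 for Spink4 in sham, -0.020 to 0.041 for Klk1 after hepatectomy, and at day 10 -0.38 to 0.14 for Fcgbp and -0.30 to 0.33 for Spdef. The stricter filter called Muc2 in IEC (0.14, adjusted p = 0.0175).

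Same-numbered libraries did not deviate together (correlations of -0.016 to 0.028 in the intestine and -0.030 to 0.042 over the days). With 2 libraries per intestinal group the deviations within a group mirror each other. These values therefore cannot decide whether same-numbered libraries share an animal, which the labels do not state. With the replicate block 6585 genes were called in crypts, no member gained or lost a call, and Spdef at day 10 stood at -0.017. Over the days, not every library correlated best with its own number.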
